A study of Mus musculus with 27 samples.

Results

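Tmem176a and Tmem176b are 2 genes of the 22524 in the deposited tables, and both were measured in each of the 27 libraries. They are neighbours on mouse chromosome 6 and were chosen by the difference between the treatment labels that earlier work on these libraries had shown in organoids. Their level and ratio in organoid cultures, m-ICc12 cells and fibroblasts and the label difference in organoids and m-ICc12 are therefore given as a description, without a test. Both genes passed the filter on low counts in all 7 fits.

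The series compared small intestinal epithelial organoids with cell lines by poly-A RNA sequencing. Organoids are three-dimensional cultures grown from crypt stem cells, and these came from the jejunum of wild-type C57BL/6J male mice, 8 to 12 weeks old. The mice of a facility were cohoused littermates. There were 9 mice, 3 raised germ-free (GF) and 3 in each of the specific pathogen-free (SPF) facilities called SR and SE, and each gave 1 culture (GF: Z917 to Z919, SR: Z908 to Z910, SE: Z911 to Z913), grown to passage 5 to 8. The comparison cells were m-ICc12, an immortalised small intestinal epithelial line of mouse, and C57BL/6 mouse embryonic fibroblasts (MEF, 3 replicates, R1 to R3). Each organoid culture had 1 library labelled untreated and 1 labelled TNF (8 h at 5 ng/ml), m-ICc12 had 3 of each label, numbered M1 to M3, and the MEFs were untreated only. The m-ICc12 numbers are only names and pair no libraries. The deposited data carry names that give the opposite treatment for all 24 of these organoid and m-ICc12 libraries. The labels were followed throughout, so that every direction is one by label. The labels did not pass a check on targets of NF-kB, the transcription factor that TNF activates. Nfkbia, Nfkb2, Relb, Tnfaip3 and C3 were each lower in the library labelled TNF in 9 of 9 organoid cultures, and in m-ICc12 all 3 libraries labelled TNF lay below all 3 labelled untreated for each of these genes, so "the library labelled TNF" is used in place of a treatment.

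Total counts on genes lay between 6071103 and 43843615, and the lowest total was that of the m-ICc12 library M1 labelled TNF. Lars2, a mitochondrial leucyl-tRNA synthetase named after its values were seen, took 0.158% to 13.5% of the counts in the m-ICc12 libraries labelled TNF and 0.115% to 0.153% in those labelled untreated. Organoids carried all 10 epithelial markers listed, with summed levels of 7237 to 8607 CPM (read counts normalised to library size) in the libraries labelled untreated. In m-ICc12 the summed level was 1611 to 2182 CPM, nearly all from Krt8 and Krt18, while Epcam and Cdh1, which define epithelium, stood at a mean of 4.37 and 1.502 CPM against 974 and 1011 CPM in organoids. MEFs held 18.9 to 23.1 CPM of epithelial and 3882 to 5089 CPM of fibroblast markers.

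TMEM176A and TMEM176B are small proteins that cross the membrane 4 times and are related in sequence to the MS4A family, to which the B cell antigen CD20 belongs. They are best known from dendritic cells and macrophages, where they lie on intracellular membranes, have been described as cation channels and act in antigen presentation on MHC class II. TMEM176B is also known as a brake on the NLRP3 inflammasome.

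In the annotation of build GRCm38 (GENCODE vM21), Tmem176b (ENSMUSG00000029810) lies on the minus strand at chr6:48833818-48841496 and Tmem176a (ENSMUSG00000023367) on the plus strand at chr6:48840919-48847071. The genes point away from each other, and their spans overlap by 578 bp at the 5′ ends. Within the overlap, 81 bases are exonic in both genes, which is 2.13% of the 3810 exonic bases of Tmem176a and 3.42% of the 2371 of Tmem176b. Whether strand was used in counting is not given in the sources used here, so reads from these bases may have been given to either gene. No other annotated gene overlaps the pair.

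RefSeq (GRCm38.p6) lists 2 start sites for Tmem176a and 3 for Tmem176b, and the nearest of them are 109 bp apart. The stretch shown is the one that holds both of these nearest start sites, at chr6:48841233-48841532 on the plus strand, 250 bases before the Tmem176a start and 50 from it on. Tmem176a starts at base 251 and Tmem176b, leftwards on the other strand, at base 142. The capitals mark, from left to right, a match to the consensus of NF-kB on the minus strand and a match to AGGAAGT, a core bound by ETS factors such as PU.1, on the plus strand.
shared start region of the pair: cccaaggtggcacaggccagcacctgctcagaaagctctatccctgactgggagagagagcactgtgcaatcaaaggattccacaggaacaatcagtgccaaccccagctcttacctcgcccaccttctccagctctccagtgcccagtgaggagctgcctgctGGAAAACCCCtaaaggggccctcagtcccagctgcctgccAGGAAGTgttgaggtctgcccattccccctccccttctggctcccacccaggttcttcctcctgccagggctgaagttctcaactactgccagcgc
Of 7 motifs searched on both strands, 3 had a match in any of the 5 RefSeq start windows of the pair. The NF-kB consensus match at chr6:48841397-48841406 lies between the nearest start sites, 86 bp before that of Tmem176a, and such a match is held by 4.51% of the 32851 start windows of all mouse genes. The looser form GGGNNNNNCC, which includes it, had 3 distinct matches in 4 of the 5 windows and is held by 50.8% of all windows. AGGAAGT is held by 9.35% of all windows. The others had no match in the 5 windows. These were the TATA box TATAAA, held by 13.6% of all windows, the box CCAAT, held by 37.4%, the GC box GGGCGG, held by 35.7%, and the AP-1 site TGANTCA, held by 7.81%. The stretch shown has 2 CpG dinucleotides, against a median of 7 over all windows. These matches are letters in a window, and no binding was measured.

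The level of both genes was highest in m-ICc12, lower in organoids and lowest in MEFs. Levels are TMM-normalised CPM, where TMM is the scaling of library sizes by edgeR. In the organoid libraries labelled untreated, Tmem176a ranged from 77.7 to 101 CPM with a median of 92.4 (mean 90.9 ± 7.58 SD, n = 9). In those labelled TNF it ranged from 39.3 to 64.5 CPM with a median of 45.0 (mean 48.6 ± 9.03 SD, n = 9). The ranges did not overlap, and the spread was narrow, with a coefficient of variation of 8.34% in the untreated label and 18.6% in the other.

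Tmem176b ranged from 278 to 367 CPM with a median of 293 in the organoid libraries labelled untreated (mean 308 ± 28.01 SD, n = 9). In those labelled TNF it ranged from 84.2 to 182 CPM with a median of 140 (mean 138 ± 29.6 SD, n = 9). Here too the ranges did not overlap, and the lowest value of the untreated label was 1.53 times the highest of the other, against 1.20 times for Tmem176a.

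In m-ICc12, Tmem176a stood at 463, 437 and 347 CPM in M1, M2 and M3 labelled untreated and at 325, 360 and 283 CPM in M1, M2 and M3 labelled TNF. Tmem176b stood at 979, 1021 and 835 CPM and at 689, 822 and 624.7 CPM in the same order. All 6 libraries lay above all 18 organoid libraries for both genes, and by mean CPM the m-ICc12 libraries labelled untreated were 4.57 times the organoids of that label for Tmem176a and 3.07 times for Tmem176b. With the libraries labelled TNF these folds were 6.64 and 5.15.

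In MEFs, Tmem176a was read 236, 143 and 111 times in R1, R2 and R3, which is 5.60, 3.60 and 4.26 CPM. Tmem176b was read 476, 401 and 355 times, which is 11.3, 10.1 and 13.6 CPM. The pair was thus detected in fibroblasts well above the floor of 3 counts, at a low level. Organoids labelled untreated had 20.3 times the MEF mean for Tmem176a and 26.4 times for Tmem176b, or 10.8 and 11.8 times with the organoids labelled TNF.

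**Figure D1:**
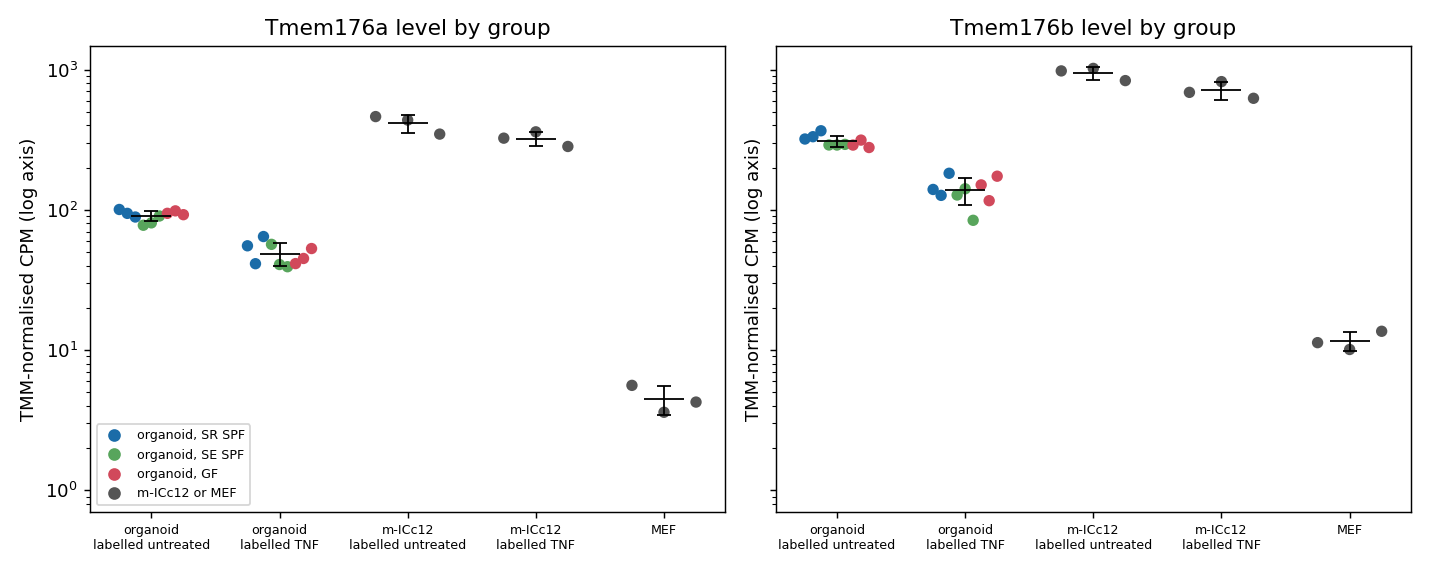
Level of Tmem176a (left) and Tmem176b (right) in each of the 27 libraries, as TMM-normalised CPM on a log axis. Points are libraries coloured by origin, the long dash is the group mean and the whiskers are 1 SD. For Tmem176b the groups stand apart from each other, and for Tmem176a only the m-ICc12 labels overlap.

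From lowest to highest the order for both genes was MEF, organoid labelled TNF, organoid labelled untreated, m-ICc12 labelled TNF and m-ICc12 labelled untreated. The m-ICc12 labels overlapped for Tmem176a, where 347 CPM was the lowest labelled untreated and 360 CPM the highest labelled TNF. For Tmem176b their ranges were separate but close, the lowest labelled untreated being 1.02 times the highest labelled TNF. All other neighbours in the order had separate ranges for both genes.

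Set against the other genes of the same cells per kb of merged exons, the pair changed place between cell types. Tmem176b had 399 CPM per kb in m-ICc12 labelled untreated, rank 49 of 11717 genes above background, and 130 CPM per kb in organoids labelled untreated, rank 344 of 11792. In MEFs it had 4.92 CPM per kb, rank 6953 of 11842. Tmem176a had 109, 23.9 and 1.18 CPM per kb in these groups, ranks 363, 2279 and 9703, while the median gene had 7.80, 7.67 and 6.99. Tmem176b was hence among the most abundant messages of m-ICc12 and organoids, and both genes lay below the median gene in MEFs. Among the organoid libraries labelled TNF, Tmem176b was at rank 851 and Tmem176a at rank 4131 of 11883.

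Both genes had the lower level in the TNF-labelled library of 9 of 9 organoid cultures. The SR cultures Z908, Z909 and Z910 went from 320, 332 and 367 CPM of Tmem176b labelled untreated to 140, 127 and 182 CPM labelled TNF. The SE cultures Z911, Z912 and Z913 went from 290, 290 and 293 CPM to 128, 141 and 84.2 CPM. The GF cultures Z917, Z918 and Z919 went from 290, 314 and 278 CPM to 151, 116 and 174 CPM. The cultures were close together in the untreated label and farther apart in the other, with Z913 lowest and Z910 highest.

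For Tmem176a, the SR cultures went from 101, 94.4 and 88.9 CPM to 55.4, 41.3 and 64.5 CPM. The SE cultures went from 77.7, 80.8 and 90.4 CPM to 56.8, 40.8 and 39.3 CPM, and the GF cultures from 94.5, 98.4 and 92.4 CPM to 41.4, 45.0 and 53.0 CPM. Z910 and Z911 had the smallest differences of Tmem176a, at 1.38-fold and 1.37-fold, and Z913 had the largest, at 2.30-fold.

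On the log2 CPM scale (prior count 2), the library labelled TNF minus the one labelled untreated was -1.19 ± 0.33 (SD, n = 9) for Tmem176b, between -1.80 in Z913 and -0.68 in Z919. For Tmem176a it was -0.92 ± 0.30 (SD, n = 9), between -1.20 and -0.45. In the edgeR fit over all 12104 genes tested, the fitted log2 differences were -1.16 (SE 0.11) and -0.91 (SE 0.10), and Tmem176b and Tmem176a stood at places 10 and 16 in order of p, which is the order they were picked from. By size of difference they stood at places 305 and 482 only. For comparison, Nfkbia, an inhibitor of NF-kB and itself a target, differed by -2.66 (SE 0.10) and Relb, a subunit, by -1.49 (SE 0.13).

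**Figure D2:**
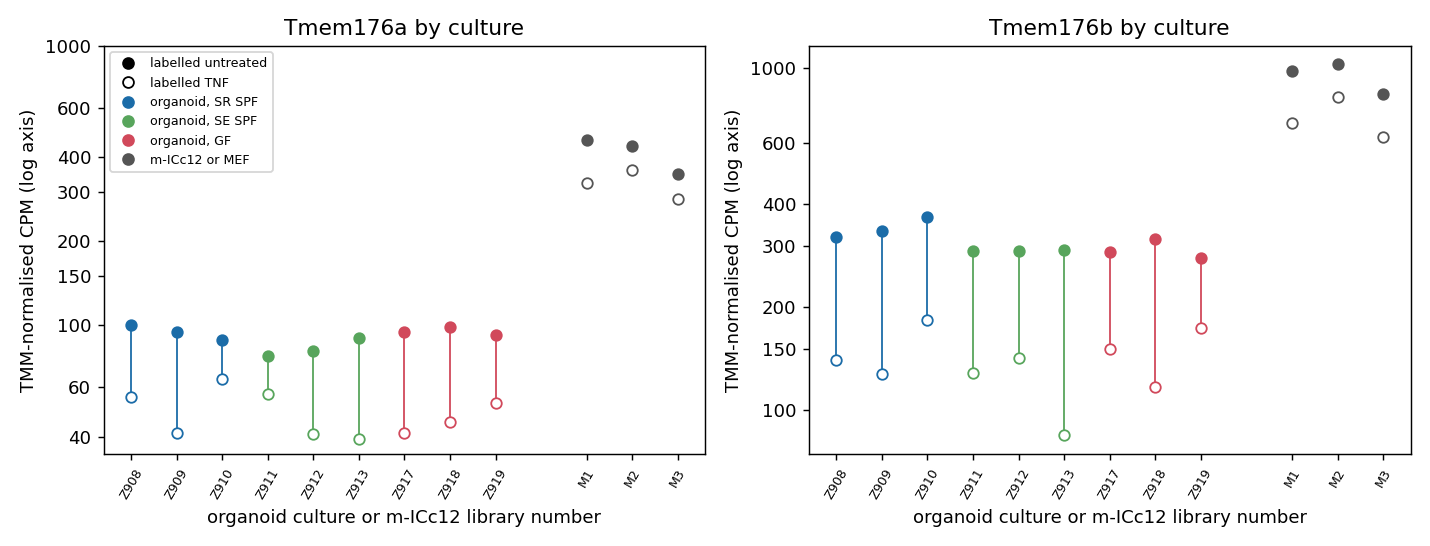
Level of Tmem176a (left) and Tmem176b (right) in the organoid and m-ICc12 libraries, by culture or library number, as TMM-normalised CPM on a log axis. Filled circles are libraries labelled untreated, open circles those labelled TNF, and a line joins the libraries of 1 organoid culture. The open circle is the lower one in all 9 organoid cultures.

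The same difference in m-ICc12 is part of the rule that chose the genes, so it too is given as a description. By group, Tmem176b had a mean of 945 ± 97.4 CPM labelled untreated and 712 ± 100.4 CPM labelled TNF, and Tmem176a 416 ± 60.8 and 323 ± 38.5 CPM (SD, n = 3 each). The fitted log2 differences were -0.40 (SE 0.16) for Tmem176b and -0.35 (SE 0.16) for Tmem176a. Of the 11861 genes tested in this comparison, 11 (0.0927%) were lower at an adjusted p under 0.05 (edgeR's quasi-likelihood F-test). Of the 10 NF-kB targets listed, 7 were among them. The low-count library M1 labelled TNF and its share of Lars2 go with this contrast. Without M1 the fitted values were -0.36 for Tmem176b and -0.28 for Tmem176a, and with Lars2 left out of the counts (an alternative added after the data were seen) they were -0.40 and -0.35.

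Organoids and m-ICc12 differ in base level, and the difference between their responses was not tested.

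Whether the origin of the donor went with the level of the pair was tested on counts summed over both libraries of a culture. Since the mice of a facility were cohoused littermates, the microbiota cannot be told apart here from facility, litter or cage. The sum does not depend on which library carries which label, but the deeper library of a culture weighs more in it. No difference passed the test. GF minus SPF was 0.04 for Tmem176a (log2, 95% interval -0.17 to 0.26) and -0.02 for Tmem176b (-0.24 to 0.20), with an adjusted p of 0.999 for both (edgeR, 3 against 6 cultures). Of 12970 genes tested, 7 (0.054%) were called in either direction. SR minus SE was 0.13 for Tmem176a (-0.15 to 0.41) and 0.12 for Tmem176b (-0.16 to 0.40), adjusted p = 1.00 for both, in a comparison that called 1 of 12908 genes (0.00775%). Both GF intervals stay within 0.26 of 0 on the log2 scale.

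The label difference was compared between origins as an interaction, GF minus SPF. It was 0.23 for Tmem176b (log2, 95% interval -0.24 to 0.70) and -0.20 for Tmem176a (-0.64 to 0.25), neither past the threshold (edgeR, adjusted p = 1.00 for both). No gene was called among the 12640 tested (0%), with 323 at an unadjusted p under 0.05 and 1 called by DESeq2. By origin, Tmem176b differed by -1.20 ± 0.19 in SR, -1.34 ± 0.40 in SE and -1.02 ± 0.38 in GF (SD, n = 3 each), and Tmem176a by -0.84 ± 0.36, -0.88 ± 0.39 and -1.04 ± 0.21.

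The ratio of Tmem176a to Tmem176b was formed per kb of merged exons, so that 1 would mean equal reads per base. It stayed below 0.31 in all 27 libraries. In organoids labelled untreated it ran from 0.151 to 0.207 with a median of 0.192 (mean 0.184 ± 0.0185 SD, n = 9), and in those labelled TNF from 0.171 to 0.290 with a median of 0.220 (mean 0.224 ± 0.0425 SD, n = 9). In m-ICc12 it was 0.294, 0.266 and 0.259 in the libraries labelled untreated and 0.293, 0.273 and 0.282 in those labelled TNF, and in MEFs 0.309, 0.222 and 0.195. All 6 m-ICc12 libraries lay above all organoid libraries labelled untreated, while the organoids labelled TNF overlapped with m-ICc12 and the MEFs overlapped with both. As a share of the reads of the pair, Tmem176a took 19.5% to 24.9% in organoids labelled untreated and 29.3% to 32.1% in m-ICc12.

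Within organoid cultures the ratio was higher in the library labelled TNF in 7 of 9 cultures, the exceptions being the GF cultures Z917 and Z919. The log2 ratio changed by 0.41 ± 0.26 (SD, n = 6) in the SPF and by -0.02 ± 0.29 (SD, n = 3) in the GF cultures. In m-ICc12 its mean was 0.273 ± 0.0186 in the libraries labelled untreated and 0.283 ± 0.0103 in those labelled TNF (SD, n = 3 each).

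The ratio was also compared between origins from summed counts. It lay between 0.195 and 0.207 in the 3 GF cultures and between 0.175 and 0.215 in the 6 SPF cultures, so that GF lay within the range of SPF. The difference of 0.06 in the log2 ratio was smaller than the SD of 0.13 among the SPF cultures (two-sided exact permutation test, p = 0.44 over 84 arrangements, smallest possible p = 0.0119). With only the libraries labelled untreated GF was higher by 0.20 (exact permutation p = 0.0595), and with only those labelled TNF it was lower, at -0.23 (exact permutation p = 0.25).

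**Figure D3:**
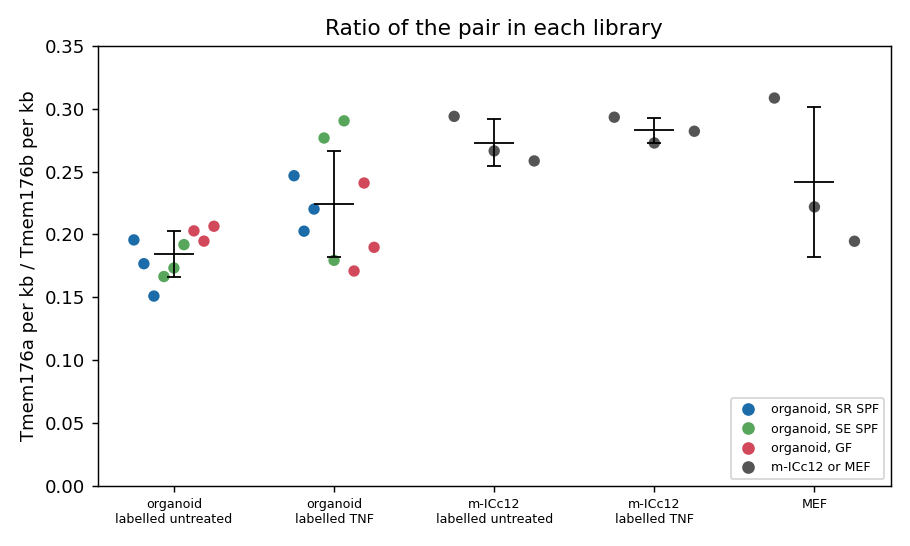
Ratio of Tmem176a to Tmem176b, each as CPM per kb of merged exons, in each of the 27 libraries on a linear axis from 0. Points are libraries coloured by origin, the long dash is the group mean and the whiskers are 1 SD. The m-ICc12 libraries, between 0.259 and 0.294, stand above the organoids labelled untreated, between 0.151 and 0.207.

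Whether the 2 genes rose and fell together from culture to culture was tested with 3 correlations over the 9 organoid cultures, and none passed. In the libraries labelled untreated Pearson's r was 0.29 and Spearman's rho 0.17 (exact permutation p = 0.455 and 0.678, both unchanged by adjustment over the 3 correlations). In the libraries labelled TNF r was 0.60 and rho 0.52 (exact permutation p = 0.0843 and 0.162, adjusted 0.253 and 0.243). For the difference between labels r was 0.44 and rho 0.53 (exact permutation p = 0.238 and 0.148, adjusted 0.357 and 0.243). Leaving out the 2 cultures farthest from the median of Tmem176b gave r of 0.57, 0.16 and 0.30. With the mean of each facility subtracted r was -0.18, 0.58 and 0.63. In the libraries labelled TNF, r thus went from 0.60 to 0.16 without Z910 and Z913, the cultures left out there. Leaving out the most extreme cultures also narrows the range, so this cannot show what the r of 0.60 rests on.

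Across all 27 libraries r between the genes was 0.99, a description of the steps between cell types and labels, which these libraries share. Over the 18 organoid libraries with label means kept it was 0.94, and after each label's mean was subtracted it was 0.55. No p is given for these, since libraries of 1 culture come from the same mouse.

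**Figure D4:**
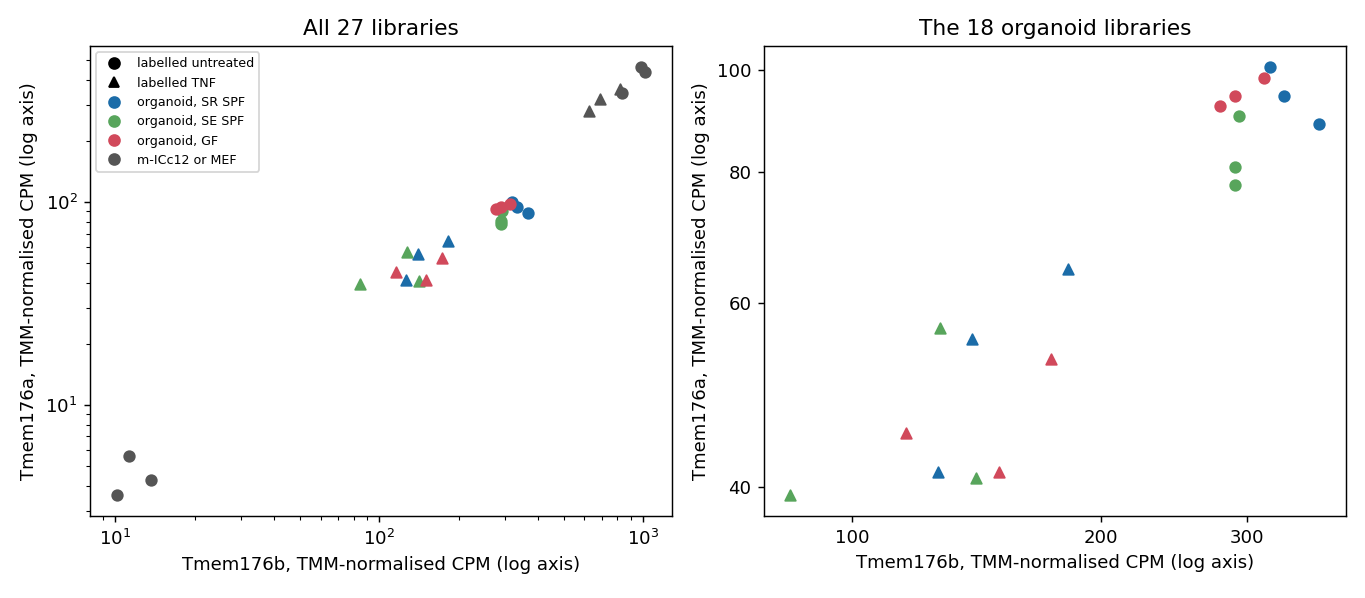
Tmem176a against Tmem176b as TMM-normalised CPM on log axes, for all 27 libraries (left) and for the 18 organoid libraries (right). Circles are libraries labelled untreated or MEF, triangles those labelled TNF, and colours give the origin. On the left the groups line up from MEF to m-ICc12, and on the right the labels form separate clouds. The correlation of the genes over the cultures passed its test in neither label.

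The genes most like each member were sought among 12070 genes above background in organoids, by r over the 18 organoid libraries with label means subtracted. For Tmem176a they were Nrarp, a feedback regulator of Notch signalling (r = 0.85), Dapk3, a protein kinase (0.79), Zfp61 (0.76), Lrpap1 (0.75) and Dctpp1 (0.74). For Tmem176b they were Gm4799 (0.79), Lypd8, an antibacterial surface protein of gut epithelium (0.78), and the protocadherins Pcdhga12, Pcdhga7 and Pcdhga10 (0.78, 0.77 and 0.77), which share exons of 1 gene cluster so that their counts are not independent. On this measure each member came after the genes named for the other (r = 0.55). Tmem176b was at place 126 of the 12070 genes for Tmem176a, and Tmem176a at place 111 for Tmem176b. With Spearman's rho in place of r the pair had 0.42, and these places were 690 and 474. For each member, 3 of the 5 genes named stayed among its first 5.

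With label means kept, the first 4 for Tmem176a were Cyba, a subunit of the NADPH oxidases, C3, Nfkb2 and Mreg, and for Tmem176b they were Cyba, Nfkb2, Mreg and Clca3b, with the partner at place 5 for each. Over all 27 libraries each was first for the other, ahead of Tgm2, a transglutaminase, for Tmem176a. The neighbours in pattern thus changed with whether the label step, the cell type step or only the spread between cultures entered the measure.

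In the fits without a block for the culture, none of the genes around the pair was called between the labels in organoids. These fits leave out the pairing of the libraries, and with the block 397 genes were called in place of 168. The outcome for the genes around the pair with the block is not given here. Of the genes annotated within 300 kb, 23 are in the deposited tables, among them the Gimap cluster of GTPases of lymphocyte survival on the Tmem176b side and Aoc1, a diamine oxidase of the gut, 25825 bp away on the Tmem176a side. In organoids, 11 of the 23 could be tested, with 0 called by edgeR or by DESeq2 and 2 at an unadjusted p under 0.05, where 1.26% of all genes were called lower. Their median log2 difference was -0.11, while that of all genes was near 0. Aoc1 had the smallest p among the named neighbours, with 204 ± 60.6 CPM labelled untreated and 141 ± 33.2 CPM labelled TNF (SD, n = 9 each, log2 difference -0.53, SE 0.15, edgeR adjusted p = 0.104).

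Between cell types the neighbours went different ways. Against m-ICc12, 5 of 12 tested neighbours were higher in organoids (Aoc1, Gimap1, Gimap5, Gm28053 and Zfp775) and 1 was lower (Atp6v0e2), in a comparison that called 31.6% of genes higher and 29.3% lower. Gimap1, Gimap5 and Gm28053 passed the filter on low counts through organoids alone, so they had to be higher there. Aoc1 stood at 204 CPM in organoids and 24.6 CPM in m-ICc12 labelled untreated, and Gimap1 at 10.0 and 0.00801 CPM. Atp6v0e2, a subunit of the vacuolar proton pump, stood at 6.44 and 101 CPM. Against MEFs, 7 of 11 were higher in organoids and Igf2bp3, an RNA-binding protein of fetal tissues, was lower, at 0.848 against 54.3 CPM, where 34.6% of genes were called higher and 32.6% lower. Gimap1, Gimap5, Gimap9 and Gm28053 passed the filter there through organoids alone, so they too had to be higher in organoids. Gm28053 spans Gimap1 and overlaps Gimap5, and their counts cannot be told apart with confidence.

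**Figure D5:**
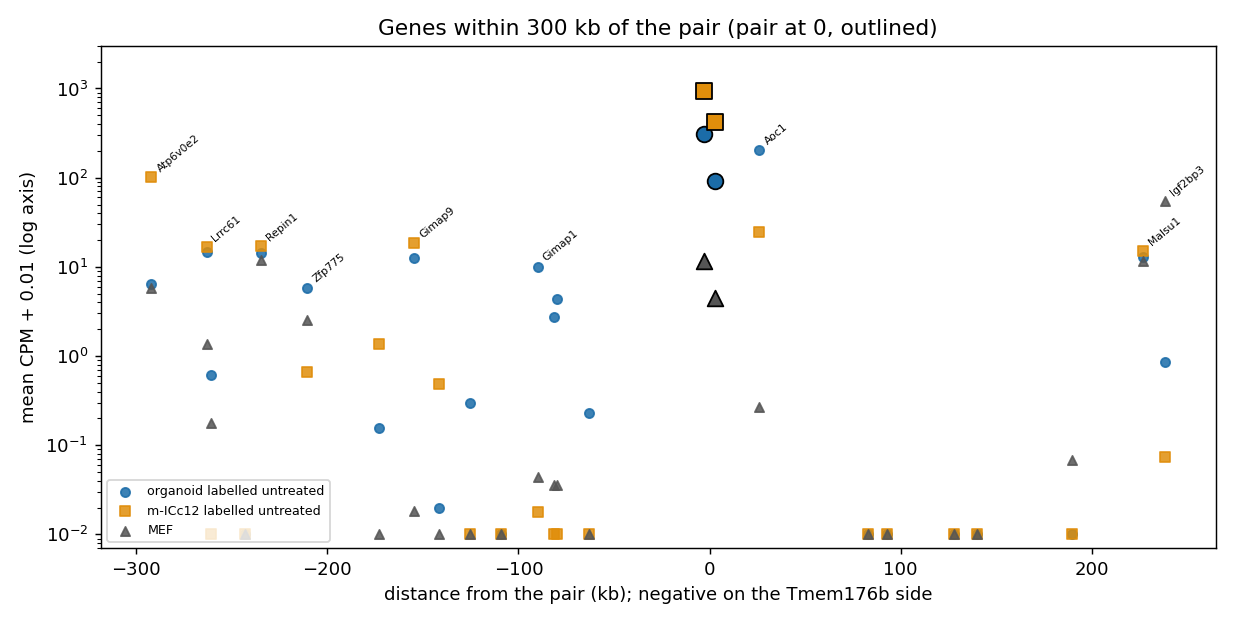
Mean CPM plus 0.01, on a log axis, of the genes within 300 kb of the pair against their distance from it in kb, negative on the Tmem176b side. Circles are organoids and squares m-ICc12, both labelled untreated, and triangles MEFs, with the pair outlined at 0. In m-ICc12 both members stand above all their neighbours, and in organoids Aoc1 lies between Tmem176b and Tmem176a.

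The relatives and partners of the pair were read from lists. Of the Ms4a genes, 19 are in the tables and 14 had no count in any organoid library. The 5 others, Ms4a10, Ms4a8a, Ms4a18, Ms4a12 and Ms4a15, had means of 73.95, 28.5, 27.5, 6.29 and 0.570 CPM in organoids labelled untreated. Against m-ICc12, 6 Ms4a genes were tested, and these 5 were called higher in organoids and Ms4a2, with no count in organoids and 4.09 CPM in m-ICc12, lower, where 31.6% of all genes were called higher and 29.3% lower. Against MEFs the 5 were called higher, as were 34.6% of all genes. The 5 passed the filter on low counts through organoids alone and Ms4a2 through m-ICc12 alone, so their directions had to be these. Between the labels in organoids none of the 5 was called by edgeR or DESeq2 (0 at an unadjusted p under 0.05), where 1.26% of all genes were called lower, and their median log2 difference was -0.26.

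Of 10 inflammasome genes listed, 7 were tested between labels in organoids, and 2 fell in the libraries labelled TNF, Casp4, the caspase that senses bacterial lipopolysaccharide, and Gsdmd, the pore protein of pyroptosis, both named because they were called. That is 2 of 7, where 1.26% of all genes were called lower. Casp4 went from 50.2 ± 8.76 to 15.6 ± 3.74 CPM (log2 difference -1.70, SE 0.15, edgeR adjusted p = 1.66e-08) and Gsdmd from 26.8 ± 10.7 to 8.23 ± 1.95 CPM (-1.71, SE 0.22, adjusted p = 1.33e-05). Pycard, the adaptor, stood at 249.9 and 233 CPM, and Nlrp3, the sensor held in check by TMEM176B, had no count in the organoid libraries labelled untreated and a mean of 0.0168 CPM in those labelled TNF. The list's median was -0.14.

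Of 17 genes of MHC class II presentation, 8 were tested and 1, Cd74, the invariant chain, fell in the libraries labelled TNF, with a mean of 1.64 CPM labelled untreated and no count in any of the 9 libraries labelled TNF (edgeR adjusted p = 0.00082). That is 1 of 8, beside 1.26% of all genes. Cd74 passed the filter on low counts through the libraries labelled untreated alone, so its direction had to be this one. The rest of the list was not called (3 of 8 at an unadjusted p under 0.05, Cd74 included), and the median was -0.14. H2-Aa, a class II chain, and Il1b, the cytokine released by the inflammasome, had no count in any organoid library.

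Leukocytes, the best known source of the pair, were checked by 14 markers. Their summed level was 5.62 to 25.03 CPM in organoids labelled untreated and 5.35 to 13.6 CPM in those labelled TNF, with Itgam the largest contributor, and 4 of the 14 had no count in any organoid library. Ptprc (CD45) was near 0, with means of 0.00441 and 0.0158 CPM in the untreated and TNF labels. Of the 3 markers tested between the labels none was called by edgeR, while DESeq2 called Zbtb46, a transcription factor of dendritic cells named after its values were seen. Its mean was 1.07 CPM labelled untreated and 0.0925 CPM labelled TNF (log2 difference -3.46, SE 1.02, edgeR unadjusted p = 0.00219, adjusted p = 0.118). Zbtb46 passed the filter on low counts through the libraries labelled untreated alone, so it had to be lower in the others. Its part in the label difference of the pair was not tested. In m-ICc12 the sum was 96.4 to 150 CPM labelled untreated and 134 to 156 CPM labelled TNF, mostly from Csf1r, with Ptprc at 0.810 and 0.886 CPM. Within organoid labels, the mean log2 level of the 3 leukocyte markers above background went with the pair at r of 0.10 and 0.07, and total counts with -0.17 and -0.01 (Tmem176a and Tmem176b, 18 libraries, descriptions).

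Markers of epithelial cell types were set beside the pair in the same way. Within labels, r between the mean marker level and the pair was -0.42 and -0.53 for 7 enterocyte markers, -0.46 and -0.40 for 7 goblet cell markers, -0.43 and -0.36 for 6 Paneth cell markers and -0.52 and -0.28 for 6 enteroendocrine markers (Tmem176a, then Tmem176b). It was also negative for the 10 general epithelial markers, at -0.24 and -0.53, and for 11 genes around the pair, at -0.49 and -0.33. For 5 stem cell markers r was 0.25 and 0.19, and for 5 tuft cell markers 0.08 and 0.22. The libraries share depth and culture in pairs, and fewer cells of a type cannot be told apart from less RNA per cell. Between the labels, 2 of 5 stem cell markers were called lower in organoid libraries labelled TNF, where 1.26% of all genes were. Ascl2 had 28.3 CPM labelled untreated and 8.79 CPM labelled TNF, and Olfm4 885 and 251 CPM. The 3 not called were Lgr5 at 152 and 159 CPM, Smoc2 at 528 and 570.1 CPM and Axin2 at 122 and 111 CPM. None of the 7 enterocyte, 7 goblet, 6 Paneth, 6 enteroendocrine and 5 tuft markers tested was called by either edgeR or DESeq2. At a share of 1.26% of all genes called lower, so few markers can show little. An unadjusted p under 0.05 (edgeR) was reached by 1 goblet and 2 enteroendocrine markers. The part of the cell type markers in the label difference of the pair was not tested.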

How the data were processed

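Poly-A RNA of 27 mouse libraries was sequenced as single-end reads. According to the submitters' processing notes and the study's methods, reads were trimmed with Trimmomatic and aligned to GRCm38 with STAR. The notes name STAR 2.5.4b and featureCounts, and the methods another STAR version and GenomicRanges. The use of strand and of reads that align to several places is not given in the sources used here. The deposited values are counts per gene, whole and not normalized, for 22524 genes, of which 22291 matched GENCODE vM21.

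Groups came from the sample labels. Computations used R 4.3.3 with edgeR 4.0.16 and DESeq2 1.42.0, and Python 3.11.15 with scipy 1.17.1. A gene was tested when 50% or more of the libraries in either compared group held 10 counts or more. The test was edgeR's quasi-likelihood F-test after TMM, without covariates, and genes were called at a Benjamini-Hochberg adjusted p under 0.05. GF against SPF and SR against SE used counts summed per culture. Levels are TMM CPM over all 27 libraries and log2 CPM with a prior count of 2. A floor of 3 counts corresponds to 0.0684 to 0.494 CPM. Intervals are at 95%. The scripts were tested on simulated data.

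The libraries of an organoid culture come from the same mouse, which pairs them, and their deviations from the group means correlated with r of 0.0582 to 0.261. In 9 of 9 cultures this r was higher than with any library labelled TNF of another culture of the facility. For m-ICc12 the replicate numbers are only names. The m-ICc12 label difference was fitted as the others, and the members' values from it are given without a test, because the rule that chose them names it. MEF and m-ICc12 replicates may be technical, so their p-values measure the spread between these samples.

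The 2 members, the gene lists and the motifs were chosen with earlier results of these data or the sequence known. Named were the members, genes of the tables within 300 kb, the 5 genes most like each member over the organoid libraries with label means subtracted, list genes as counts with up to 5 examples, and 5 NF-kB targets to check the labels. The alternatives were DESeq2, no filter beyond 1 count, a block for the culture, all 27 libraries in 1 fit, libraries of 1 label, other scales, lengths and measures of likeness, leaving out each culture, and, added after the data were seen, leaving out Lars2. Protein sequences were not used here. One of the gene lists is not reported here.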

Additional observations from a re-analysis of the deposited data

How the results depend on the processing

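The fitted values of both members kept their direction under every alternative in the m-ICc12, SR against SE and interaction comparisons, and in the SR against SE and interaction comparisons none brought either past the threshold. In m-ICc12, over the 8 alternatives, leaving out each library number or Lars2 included, the log2 difference stayed between -0.44 and -0.36 for Tmem176b and between -0.39 and -0.28 for Tmem176a. GF minus SPF, near 0, ran from -0.10 to 0.10 for Tmem176a and from -0.10 to 0.13 for Tmem176b, with changes of sign and none past the threshold. With only the libraries labelled untreated it was 0.10 for Tmem176a and -0.10 for Tmem176b, and with only those labelled TNF -0.10 and 0.13.

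Counts of calls over all genes moved more, and the cause was not tested. With the culture as a block, the organoid label comparison called 397 genes in place of 168. The calls given above for neighbours and list genes between the labels are from fits without this block. With the library number as a block, the m-ICc12 comparison called 6 in place of 13, but these libraries share only a number (r of deviations -0.00664 to 0.0925, 1 of 3 highest with its own number). m-ICc12 calls were 46 with DESeq2, 30 with all genes of at least 1 count, 29 with all libraries in 1 fit, and 15 to 93 without 1 number, the highest without M2. GF against SPF had 7 calls, 24 with DESeq2, 4 with only libraries labelled untreated, 4 with only those labelled TNF, and 4 to 8 without 1 culture (4 without Z917, Z918 or Z919 each). SR against SE had 1 call, 9 with DESeq2, 2 with all genes, 0 with libraries labelled untreated, and 0 to 9 without 1 culture (9 without Z909, 0 without Z910 or Z912). The interaction had 0 calls and 1 with DESeq2. The block turned the direction of neither member. The correlation of the pair in the libraries labelled TNF, 0.60, ran from 0.43 to 0.70 without 1 culture and had an unadjusted exact permutation p of 0.049 without Z917. Depth limits little for the pair itself, which had at least 111 counts in every library, and 3 replicates limit the m-ICc12 and MEF comparisons.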
